A study of Mus musculus with 6 samples.

Results

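Mif, the gene of macrophage migration inhibitory factor, and 8 regulators of apoptosis (Bcl2, Bcl2l1, Mcl1, Bax, Bak1, Bcl2l11, Fas and Casp8) were followed across the 3 groups of female NOD mice. Every probe set whose annotation names a member and no other gene was taken, whatever its level. This gave 27 of the 45037 probe sets tested, for 8 of the 9 genes (of 18193 genes named alone by some probe set), and no probe set named a member together with other genes. No probe set names Bax in the annotation used, and Bax is not analysed here.

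The nonobese diabetic (NOD) mouse develops autoimmune diabetes as T cells destroy the insulin-producing cells of the pancreas. The study asked which splenic transcripts accompany protection by Trichostatin A (TSA), an inhibitor of histone deacetylases. TSA-treated mice were free of diabetes by 18 weeks of age and received 500 µg per kg subcutaneously once a week at 18 to 24 weeks. Only treated mice that were free of diabetes afterwards, which the paper calls cured, were used. The other groups were untreated mice that had become diabetic and untreated mice that stayed free of diabetes. All groups were female, of the NOD strain and kept pathogen-free, and no gene was altered. The labels give an age of 32 to 36 weeks for every array and pools of 3 to 5 mice, whereas the methods give 28 to 34 weeks for cured mice, 24 to 28 weeks for diabetic mice and pools of 4 to 6. RNA of splenocytes was pooled within each group, and each pool was labelled and hybridized in duplicate to Affymetrix mouse genome arrays, 6 in all. The p-values below therefore measure the spread between labelings of a pool and not between mice, and the small number of arrays limits their precision. In spleen RNA, fewer cells of a type and less RNA per cell cannot be told apart.

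MIF is a cytokine made by lymphocytes, macrophages and many other cells, and it signals through CD74 and its co-receptor CD44. Mitochondrial apoptosis is set by the BCL2 family. The anti-apoptotic proteins BCL2, BCL-XL (Bcl2l1) and MCL1 hold the effectors BAX and BAK (Bak1) in check, and BH3-only proteins such as BIM (Bcl2l11) lift that check. Death receptors such as FAS start the other route, in which the initiator caspase CASP8 is activated at the receptor. In the spleen BCL2, MCL1 and BIM set the lifespan of resting lymphocytes, and FAS removes activated ones.

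Bcl2 had the most probe sets lower in TSA-treated than in untreated non-diabetic mice at an unadjusted p under 0.05 by limma. The promoters of Mif and of Bcl2 are shown for reference, since the drug given acts on chromatin. Each is the run of 250 bases before the RefSeq start of the gene (GRCm38.p6, minus strand in each case), 5′ to 3′. Capitals mark GC boxes (GGGCGG or CCGCCC, the letters bound by SP1-type factors) and the palindromic cyclic AMP response element TGACGTCA.
Mif (chr10:75860278-75860527):
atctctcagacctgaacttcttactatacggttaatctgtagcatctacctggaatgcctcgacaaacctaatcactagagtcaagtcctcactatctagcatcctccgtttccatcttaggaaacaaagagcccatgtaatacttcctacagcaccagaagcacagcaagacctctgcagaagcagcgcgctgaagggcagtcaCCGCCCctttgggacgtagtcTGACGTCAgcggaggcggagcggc
Bcl2 (chr1:106714291-106714540):
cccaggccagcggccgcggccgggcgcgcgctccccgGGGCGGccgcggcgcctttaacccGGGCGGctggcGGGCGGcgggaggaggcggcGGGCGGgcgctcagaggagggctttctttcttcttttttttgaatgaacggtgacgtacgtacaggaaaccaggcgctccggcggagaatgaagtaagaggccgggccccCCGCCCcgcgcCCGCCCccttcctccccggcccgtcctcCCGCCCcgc
The Mif window held 1 GC box and 1 TGACGTCA, with a GC content of 51.2% and 11 CpG dinucleotides. The Bcl2 window held 7 GC boxes and 0 copies of TGACGTCA, with a GC content of 74.8% and 36 CpG dinucleotides. Among 32851 RefSeq promoters of the same length, 32.7% held a GC box and 1.55% held TGACGTCA, both counted on either strand. The matches describe the letters of these windows, and no binding or chromatin was measured.

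The members' levels lay lower in TSA-treated mice more often than higher, and 0 of the 27 probe sets passed the test in any comparison. Against diabetic mice 22 of the 27 had a lower mean in TSA-treated mice, where 45.8% of all probe sets did, and against untreated non-diabetic mice 22 again, where 42.8% did. Without TSA-treated replicate 2, whose control transcripts are described below, the counts were 21 (52.1% of all probe sets) and 20 (51.1%). The median difference over the 27 was −0.19 on the log2 scale between TSA-treated and diabetic mice and −0.24 between TSA-treated and untreated non-diabetic mice, against 0.02 and 0.05 over all probe sets. Between diabetic and untreated non-diabetic mice 18 had a lower mean in diabetic mice, where 47.6% of all did, and the median was −0.15 against 0.01. Brighter probe sets had other shares. Of the 19 members above the median level of all probe sets, 16, 16 and 14 had a lower mean in these 3 comparisons. Of all such probe sets 55.9%, 50.2% and 45.9% did, and their median differences were −0.05, −0.00 and 0.03. Of the 8 genes, Bcl2 had lower means at all 5 of its probe sets in all 3 comparisons, with the lowest differences at 2 probe sets other than its brightest.

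**Figure D1:**
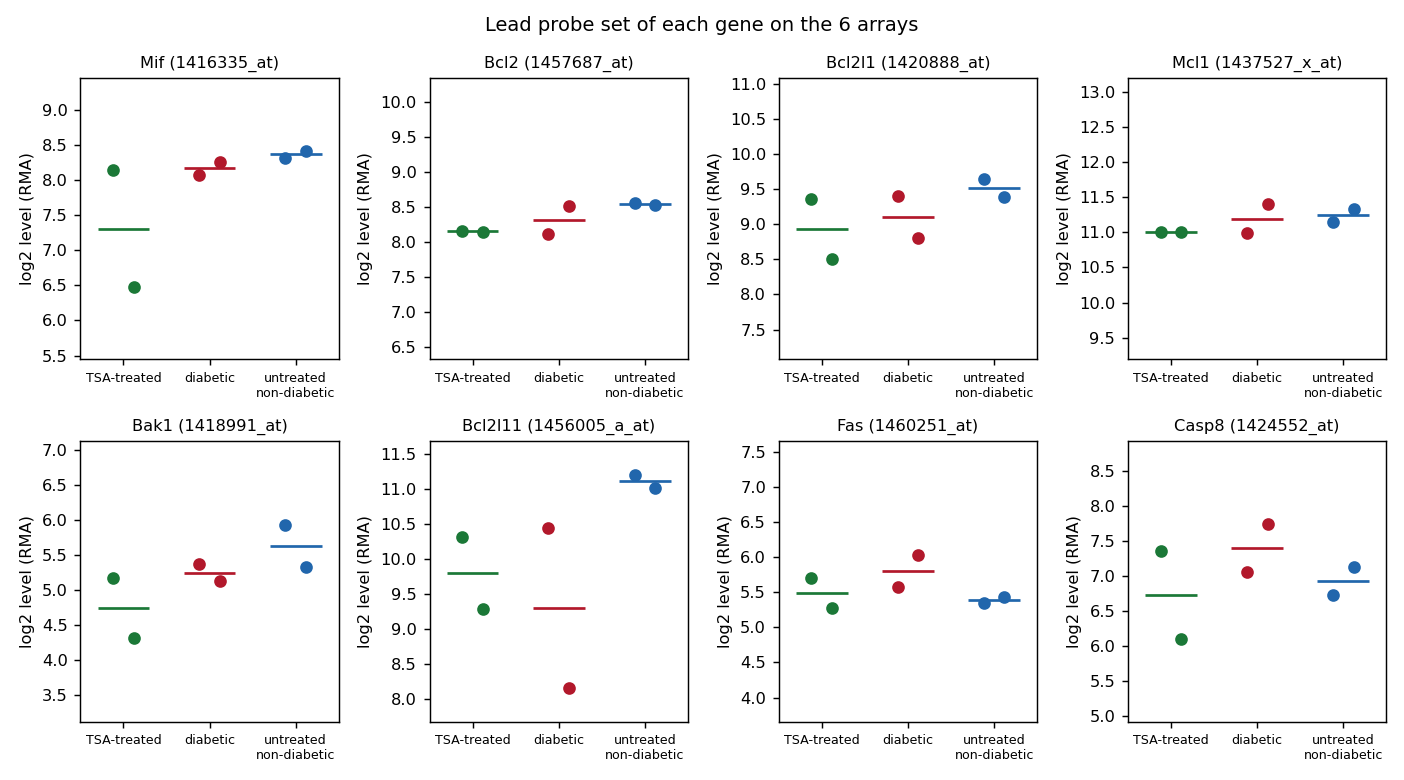
Log2 level (RMA) of the lead probe set of each of the 8 measured genes, the one with the highest mean over the arrays, on each of the 6 arrays: TSA-treated, diabetic and untreated non-diabetic mice from left to right, points for arrays and bars for group means, each axis spanning the same range of log2 units. The TSA-treated arrays of Mif stood apart from each other at 8.14 and 6.48, and the diabetic arrays of Bcl2l11 at 10.44 and 8.16.

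The arrays differed in ways that the members' values should be read beside. The signal at the 3′ end of beta-actin exceeded that at its 5′ end, a gap that widens as RNA is shorter, by 3.45 and 5.61 on the log2 scale in TSA-treated mice, by 2.42 and 3.32 in diabetic mice and by 2.35 and 2.05 in untreated non-diabetic mice. Gapdh gave gaps of 3.85 and 4.58 in TSA-treated mice, 1.82 and 3.19 in diabetic mice and 2.67 and 1.91 in untreated non-diabetic mice. TSA-treated replicate 2 thus had the widest gap at both genes and TSA-treated replicate 1 the next widest. Replicate 2 was the lowest of the 6 arrays for 5 of the 8 lead probe sets and for 11 of the 27 probe sets, against 20.6% of all probe sets. Markers of pancreatic acinar cells were called higher against untreated non-diabetic mice in TSA-treated mice (6 of 8 by limma) and in diabetic mice (7 of 8), and adipocyte markers were called lower in TSA-treated mice in 2 of 4. The part of RNA quality and of other tissue in the members' differences was not tested.

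Mif (chr10:75859353-75860277) was read by 3 probe sets, of which 1 lay above the median of all probe sets, 3.89 on the log2 scale. At that one, 1416335_at, the level was 8.14 and 6.48 in TSA-treated mice, 8.08 and 8.26 in diabetic mice and 8.32 and 8.42 in untreated non-diabetic mice. TSA-treated replicate 1 lay within the diabetic range, and replicate 2 lay below every other array. Both diabetic arrays lay just below both untreated non-diabetic arrays.

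The mean of Mif was 7.31 ± 1.17 (SD, n = 2 arrays) in TSA-treated mice, 8.17 ± 0.13 in diabetic mice and 8.37 ± 0.07 in untreated non-diabetic mice. The difference between TSA-treated and diabetic mice was −0.86 ± 0.51 (SE; 0.55 times the diabetic level) and that between TSA-treated and untreated non-diabetic mice −1.06 ± 0.51, and neither passed limma's test (adjusted p = 0.902 and 0.409). Between diabetic and untreated non-diabetic mice it was −0.20 ± 0.51 (adjusted p = 1 by limma), so no neighbours in the order of the 3 means were separated beyond the spread. The size rested on TSA-treated replicate 2. Without that array the differences from diabetic and untreated non-diabetic mice were −0.04 and −0.24, and without replicate 1 they were −1.69 and −1.89 and were called (adjusted p = 0.0296 and 0.0207 by limma, on the assumption that the lone array varies as the other groups do). In those fits without replicate 1, 2.32% and 4.54% of all probe sets were called.

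The gap between the TSA-treated duplicates of Mif, replicate 2 minus replicate 1, was −1.66, and 4.21% of the probe sets above the median level had a gap as low or lower. The same gap was 0.18 in diabetic mice and 0.10 in untreated non-diabetic mice. The other Mif probe sets lay below the median of all probe sets on every array, at 2.75 to 3.49 for 1454481_at and 2.78 to 3.25 for 1433109_at, where a change is compressed, and their means differed between groups by 0.29 at most.

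Cd74, which encodes the MIF receptor and the invariant chain of MHC class II, showed the same arrays apart at its brightest probe set, 1425519_a_at, the only one read here. Its level was 11.45 and 8.38 in TSA-treated mice, 11.99 and 11.69 in diabetic mice and 12.33 and 12.36 in untreated non-diabetic mice. TSA-treated replicate 1 lay just below the diabetic arrays and replicate 2 far below all others. The difference was −1.93 ± 0.91 between TSA-treated and diabetic mice and −2.43 ± 0.91 between TSA-treated and untreated non-diabetic mice (adjusted p = 0.902 and 0.303 by limma), and −0.51 ± 0.91 between diabetic and untreated non-diabetic mice. Cd74 is also a gene of B cells and other antigen-presenting cells, whose markers are given further on. By quantitative PCR of splenocyte RNA, normalized to Gapdh, the paper reports more Mif and Cd74 transcript in cured than in diabetic mice. For its PCR validation the paper used other mice than those on the arrays, so the RNA measured was not the same. The array means of both genes lay the other way, and the reason was not tested.

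**Figure D2:**
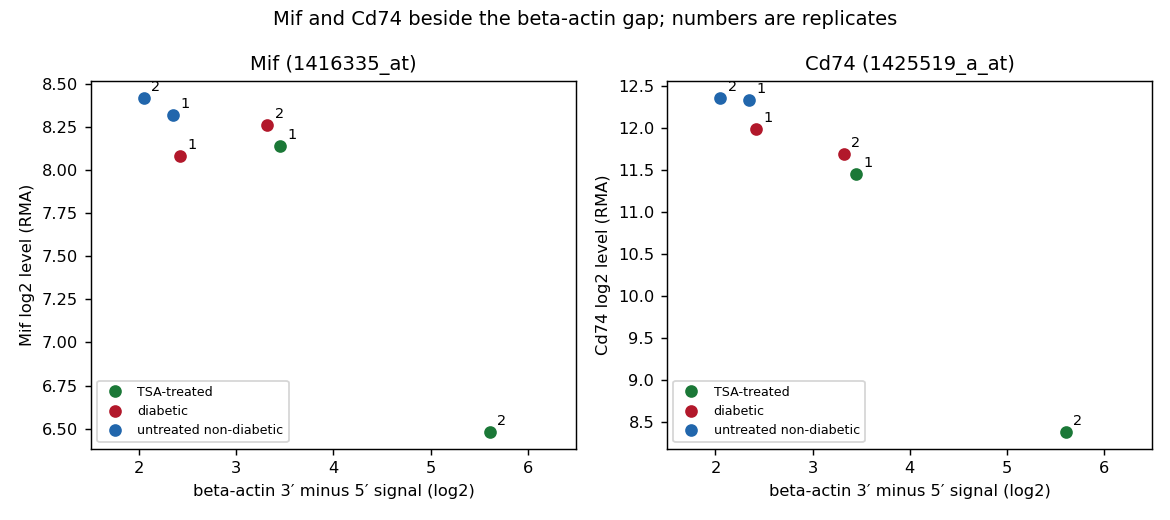
Log2 level (RMA) of Mif (1416335_at) and of Cd74 (1425519_a_at) on the vertical axes against the log2 gap between the 3′ and 5′ signals of beta-actin on the horizontal axis, with a point for each of the 6 arrays, coloured by group and numbered by replicate. The array with the widest gap, TSA-treated replicate 2 at 5.61, had the lowest level of both genes, 6.48 and 8.38.

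Bcl2, the anti-apoptotic founder of its family (chr1:106538176-106714290), was read by 5 probe sets, all above the median level. At its lead probe set, 1457687_at, the level was 8.16 and 8.14 in TSA-treated mice, 8.11 and 8.51 in diabetic mice and 8.55 and 8.52 in untreated non-diabetic mice. The TSA-treated arrays lay within the diabetic range and below both untreated non-diabetic arrays. The differences were −0.16 ± 0.19 from diabetic and −0.39 ± 0.19 from untreated non-diabetic mice (adjusted p = 0.923 and 0.418 by limma), and −0.15 and −0.37 without TSA-treated replicate 2.

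Larger differences stood at other Bcl2 probe sets. At 1440770_at the level was 6.84 and 7.01 in TSA-treated mice, 7.84 and 7.02 in diabetic mice and 8.89 and 8.77 in untreated non-diabetic mice. Neither TSA-treated nor diabetic arrays reached the untreated non-diabetic ones, and the TSA-treated arrays lay below the diabetic ones, narrowly at the nearest pair. The TSA-treated mean was lower than that of untreated non-diabetic mice by 1.91 ± 0.29 (0.267 times its level; unadjusted p = 0.000578, adjusted p = 0.103 by limma), and the diabetic mean by 1.40 ± 0.29 (unadjusted p = 0.00285, adjusted p = 0.687). These were the smallest unadjusted p of any member in each of those comparisons.

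At 1437122_at the level was 5.43 and 4.44 in TSA-treated mice, 6.47 and 6.30 in diabetic mice and 6.96 and 7.03 in untreated non-diabetic mice. The 3 groups did not overlap, with TSA-treated mice lowest and untreated non-diabetic mice highest. The difference was −1.45 ± 0.33 between TSA-treated and diabetic mice (unadjusted p = 0.00448, adjusted p = 0.902 by limma), −2.06 ± 0.33 between TSA-treated and untreated non-diabetic mice (unadjusted p = 0.000771, adjusted p = 0.109) and −0.61 ± 0.33 between diabetic and untreated non-diabetic mice (adjusted p = 0.85).

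The dimmer pair of Bcl2 probe sets kept this order of means. At 1422938_at the level was 4.29 and 4.0 in TSA-treated mice, 4.90 and 4.74 in diabetic mice and 4.74 and 5.34 in untreated non-diabetic mice. TSA-treated arrays lay below all others there. At 1443837_x_at it was 4.38 and 4.51 in TSA-treated mice, 4.89 and 4.27 in diabetic mice and 5.07 and 5.21 in untreated non-diabetic mice, and the TSA-treated arrays overlapped the diabetic ones. The differences of these probe sets between TSA-treated and untreated non-diabetic mice were −0.90 ± 0.25 and −0.70 ± 0.24 (adjusted p = 0.21 and 0.27 by limma). The probe sets of Bcl2 share a gene and the same 6 arrays and are not independent of each other, and where each lies within the transcript was not analysed here.

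Calls at Bcl2 depended on the test. Averaging its 5 probe sets gave −1.19 between TSA-treated and untreated non-diabetic mice, which limma called (adjusted p = 0.0478, over gene means, of which 0.775% were called). The local pooled error (LPE) test, which the methods name and which takes the spread from probe sets of like level, called 1440770_at and 1437122_at in that comparison (adjusted p = 0.0306 and 0.0453), with 1.59% of all probe sets called, and 0 members there at the threshold of 0.001 that the methods give, with 0.557% of all called. A limma fit of these 2 groups alone called 1440770_at (adjusted p = 0.0361), again with 1.59% of all called. Leaving out a diabetic array gave this same fit for the comparison, since a lone array adds nothing to the spread. Without TSA-treated replicate 1, the differences at 1437122_at were −1.95 from diabetic and −2.56 from untreated non-diabetic mice. Both were called in the fits described for Mif, which rest on the lone TSA-treated array with the widest gaps between 3′ and 5′ signals. In the main fit of all 6 arrays, and without TSA-treated replicate 2, no Bcl2 probe set was called.

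Bcl2l1, which encodes the anti-apoptotic BCL-XL (chr2:152758732-152833803), had a level of 9.36 and 8.51 in TSA-treated mice, 9.40 and 8.81 in diabetic mice and 9.65 and 9.39 in untreated non-diabetic mice at its lead probe set, 1420888_at. The TSA-treated and diabetic arrays overlapped, and the TSA-treated ones lay just below the untreated non-diabetic ones. The differences were −0.17 ± 0.34 between TSA-treated and diabetic mice, −0.58 ± 0.34 between TSA-treated and untreated non-diabetic mice and −0.42 ± 0.34 between diabetic and untreated non-diabetic mice (adjusted p = 0.951, 0.507 and 0.958 by limma). The first turned to 0.26 without TSA-treated replicate 2 and to 0.13 without diabetic replicate 1. The means of the other 3 probe sets, 1420887_a_at, 1426191_a_at and 1426050_at, lay under the median of all probe sets, and the lowest unadjusted p among them was 0.0405, at 1420887_a_at, for a difference of −0.93 between TSA-treated and untreated non-diabetic mice.

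Mcl1, an anti-apoptotic gene with a short-lived protein (chr3:95656944-95663179), differed little between the groups at its lead probe set, 1437527_x_at. There the arrays read 11.00 and 11.01 in TSA-treated mice, 10.99 and 11.40 in diabetic mice and 11.15 and 11.34 in untreated non-diabetic mice. The TSA-treated arrays lay within the diabetic range and below the untreated non-diabetic ones, and the differences were −0.19 ± 0.20 from diabetic and −0.24 ± 0.20 from untreated non-diabetic mice and, between diabetic and untreated non-diabetic mice, −0.05 ± 0.20 (adjusted p = 0.916, 0.641 and 1 by limma). Of its 6 probe sets, 1456243_x_at, 1456381_x_at and 1448503_at had differences from −0.15 to 0.06 in the 3 comparisons. At 1416880_at the level was 9.98 and 8.46 in TSA-treated mice, 9.72 and 10.20 in diabetic mice and 9.85 and 10.04 in untreated non-diabetic mice. Only TSA-treated replicate 2 stood off at that probe set, by 1.52 from its duplicate, a gap as low or lower in 5.27% of the probe sets above the median level. At 1416881_at the level was 7.80 and 7.46 in TSA-treated mice, 7.45 and 8.05 in diabetic mice and 7.45 and 7.32 in untreated non-diabetic mice, with differences of −0.12 ± 0.25, 0.25 ± 0.25 and 0.37 ± 0.25 in the 3 comparisons. The 6 probe sets thus gave unlike differences for the same gene on that array.

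**Figure D3:**
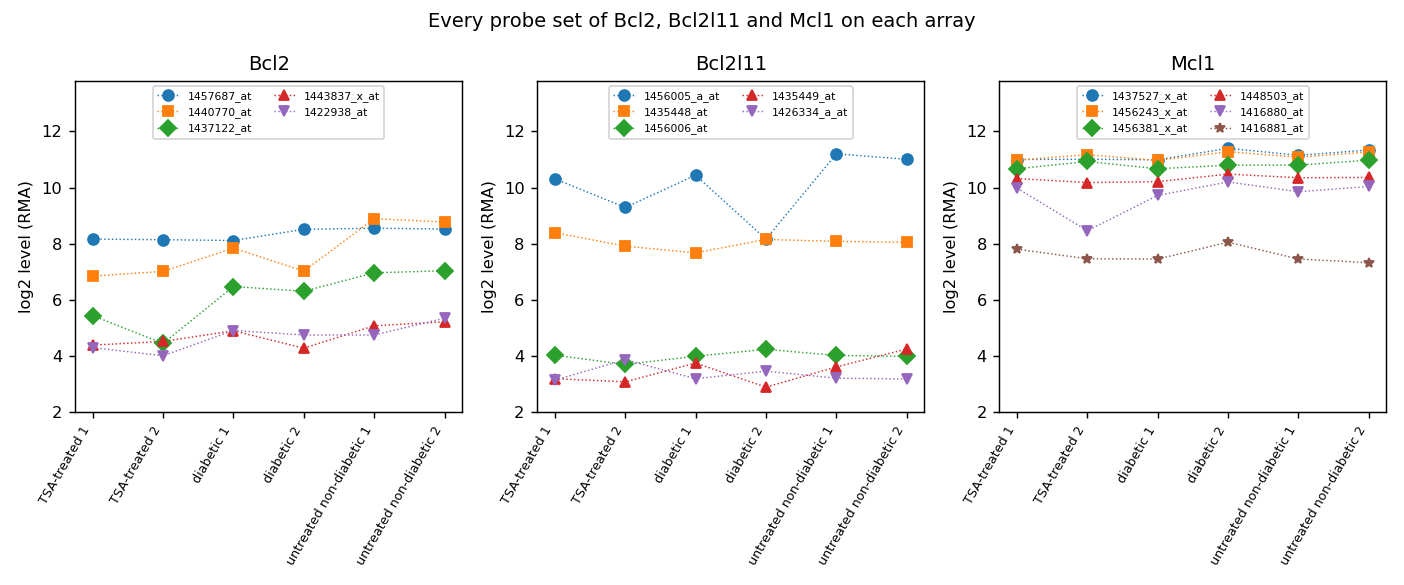
Log2 level (RMA) of every probe set of Bcl2, Bcl2l11 and Mcl1 on the vertical axes and the 6 arrays on the horizontal axes, TSA-treated, diabetic and untreated non-diabetic mice from left to right, with a line for each probe set. At Bcl2 1437122_at ran between 4.44 and 7.03, and at Mcl1 1416880_at alone dropped to 8.46 on TSA-treated replicate 2. On diabetic replicate 2 the Bcl2l11 probe set 1456005_a_at dropped to 8.16 and the dimmer 1435449_at to 2.88.

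Bak1, one of the effectors that open the outer mitochondrial membrane (chr17:27019812-27028627), had a level of 5.17 and 4.32 in TSA-treated mice, 5.37 and 5.13 in diabetic mice and 5.93 and 5.33 in untreated non-diabetic mice at 1418991_at. TSA-treated replicate 1 lay within the diabetic range and replicate 2 below every array, and both lay below the untreated non-diabetic arrays. The difference was −0.51 ± 0.35 between TSA-treated and diabetic mice and −0.88 ± 0.35 between TSA-treated and untreated non-diabetic mice (unadjusted p = 0.193 and 0.0437, adjusted p = 0.902 and 0.324 by limma), and −0.08 and −0.45 without TSA-treated replicate 2. Between diabetic and untreated non-diabetic mice it was −0.37 ± 0.35. The other Bak1 probe set, 1425716_s_at, lay under the median of all probe sets, with differences from −0.20 to 0.02.

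Bcl2l11, which encodes the BH3-only protein BIM (chr2:128126038-128162547), had the widest range of the lead probe sets, 3.04 over the arrays. At 1456005_a_at the level was 10.31 and 9.29 in TSA-treated mice, 10.44 and 8.16 in diabetic mice and 11.20 and 11.01 in untreated non-diabetic mice. All TSA-treated and diabetic arrays lay below the untreated non-diabetic ones, while the diabetic duplicates differed by 2.27, a gap as low or lower in 1.39% of the probe sets above the median level. The difference was 0.50 ± 0.74 between TSA-treated and diabetic mice, −1.30 ± 0.74 between TSA-treated and untreated non-diabetic mice and −1.80 ± 0.74 between diabetic and untreated non-diabetic mice (adjusted p = 0.936, 0.488 and 0.796 by limma).

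The Bcl2l11 difference between diabetic and untreated non-diabetic mice was −0.67 without diabetic replicate 2 and −2.94 without replicate 1. The LPE test called it (adjusted p = 4.98e-05), with 0.477% of all probe sets called, and 0.215% at the threshold of 0.001. The next Bcl2l11 probe set, 1435448_at, read 8.39 and 7.91 in TSA-treated mice, 7.67 and 8.15 in diabetic mice and 8.08 and 8.05 in untreated non-diabetic mice. The groups overlapped there, and the largest of the 3 differences was 0.24 ± 0.25, so the probe sets of this gene did not give a common order. The remaining 3, 1456006_at, 1435449_at and 1426334_a_at, lay at 2.88 to 4.24 on the arrays, near or under the median of all probe sets. Of these, 1435449_at was also lowest on diabetic replicate 2, at 2.88 against 3.74 on replicate 1.

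Fas, the death receptor (chr19:34290647-34327775), was read by 1 probe set, 1460251_at, at 5.70 and 5.28 in TSA-treated mice, 5.57 and 6.03 in diabetic mice and 5.35 and 5.43 in untreated non-diabetic mice. The diabetic arrays lay above both untreated non-diabetic ones, and the TSA-treated ones overlapped each of the other groups. The differences were −0.31 ± 0.24 between TSA-treated and diabetic mice, 0.10 ± 0.24 between TSA-treated and untreated non-diabetic mice and 0.41 ± 0.24 between diabetic and untreated non-diabetic mice (adjusted p = 0.902, 0.89 and 0.87 by limma).

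Casp8, the initiator caspase of that route (chr1:58795233-58847503), read 7.36 and 6.10 in TSA-treated mice, 7.05 and 7.74 in diabetic mice and 6.73 and 7.12 in untreated non-diabetic mice at its only probe set, 1424552_at. All groups overlapped, with TSA-treated replicate 2 the lowest array. The differences were −0.66 ± 0.46 between TSA-treated and diabetic mice, −0.19 ± 0.46 between TSA-treated and untreated non-diabetic mice and, between diabetic and untreated non-diabetic mice, 0.47 ± 0.46 (adjusted p = 0.902, 0.892 and 0.991 by limma), and the first pair became −0.03 and 0.44 without TSA-treated replicate 2. Fas and Casp8 were the 2 lead probe sets with a higher mean in diabetic than in untreated non-diabetic mice.

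**Figure D4:**
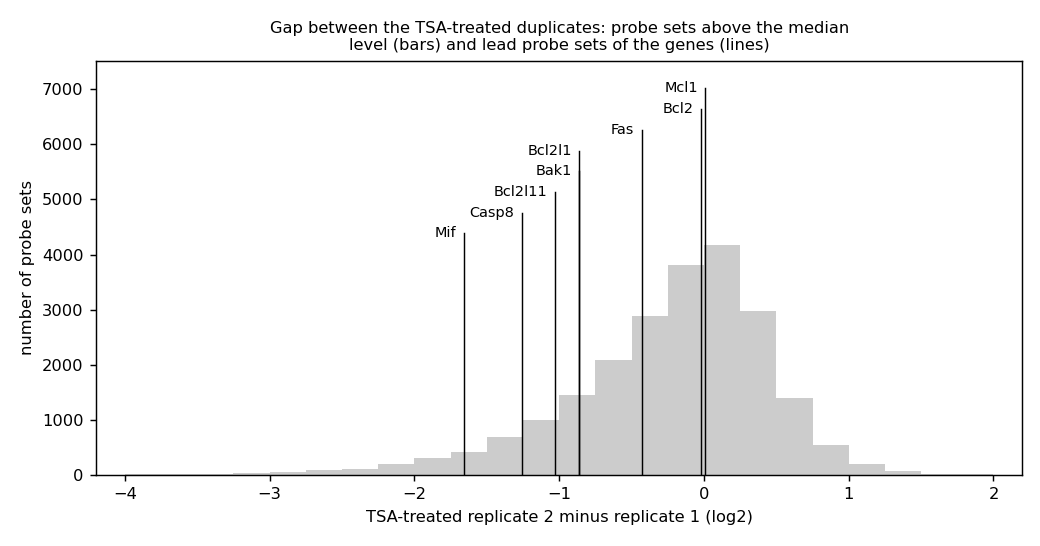
Number of probe sets (vertical axis) by the log2 difference between TSA-treated replicate 2 and replicate 1 (horizontal axis) for the probe sets above the median level, with lines at the lead probe sets of the 8 genes. Mif lay farthest to the low side at −1.66, followed by Casp8 at −1.26 and Bcl2l11 at −1.03, while Bcl2 at −0.02 and Mcl1 at 0.01 lay near 0.

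Counted over the 27 probe sets, TSA-treated against diabetic mice gave 0 called at an adjusted p under 0.05 by limma, where 0.0266% of all probe sets were called. At an unadjusted p under 0.05, 2 were lower in TSA-treated mice and 0 higher, where 2.06% and 2.21% of all were, and both were Bcl2 probe sets. The arrays did not overlap for 4, all lower in TSA-treated mice, where 11.4% of all were so, and 0 were higher, where 16.2% were. Of those 4, 3 belonged to Bcl2 and 1 to Bcl2l1. Over the 19 members above the median level 3 were lower and 0 higher without overlap, where 14.2% and 12.5% of such probe sets were. At an unadjusted p under 0.05 by limma 2 of the 19 were lower, where 3.81% of such probe sets were.

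Against untreated non-diabetic mice 0 of the 27 were called by limma in TSA-treated mice (0.0688% of all), while 6 were lower and 0 higher at an unadjusted p under 0.05, where 8.34% and 6.39% of all were. These were 4 probe sets of Bcl2, 1 of Bcl2l1 and the lead of Bak1. Arrays did not overlap for 15 that were lower and 2 that were higher in TSA-treated mice, where 21.5% and 26.3% of all did so, and the 15 held 6 of the 8 lead probe sets, all but Fas and Casp8. Over the 19 members above the median level 11 were lower and 1 higher without overlap, where 29.3% and 27.8% of such probe sets were. At an unadjusted p under 0.05 by limma 5 of the 19 were lower, where 14.1% of such probe sets were. Each TSA-treated array taken alone lay below both untreated non-diabetic arrays at 20 of the 27, where 40.2% of all did for replicate 1 and 34.4% for replicate 2. Among the 8 lead probe sets it was 6 for replicate 1 and 8 for replicate 2. Replicate 1 lay below both diabetic arrays at 10 of the 27 (29.4% of all) and replicate 2 at 12 (28.8% of all), with 0 and 5 of the lead probe sets.

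Between diabetic and untreated non-diabetic mice 0 were called by limma (0.0888% of all), and 1 was lower and 0 higher at an unadjusted p under 0.05, where 3.43% and 2.84% of all were. Arrays did not overlap for 6 that were lower and 3 that were higher in diabetic mice, where 19.4% and 21.6% of all did so. Across the 3 groups limma's moderated F test called 0 of the 27 (0.0933% of all) and had an unadjusted p under 0.05 at 3, all of Bcl2, where 9.53% of all did. The LPE test called 0, 2 and 1 members in the 3 comparisons, where 0.115%, 1.59% and 0.477% of all were called, and 0, 0 and 1 at the threshold of 0.001, where 0.0733%, 0.557% and 0.215% were. The methods' t-test called 0 members after adjustment in each, where 0%, 0.00444% and 0.00222% of all were called. The 2 comparisons of TSA-treated mice share the TSA-treated arrays, and each untreated group enters 2 comparisons, so the counts are not independent.

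**Figure D5:**
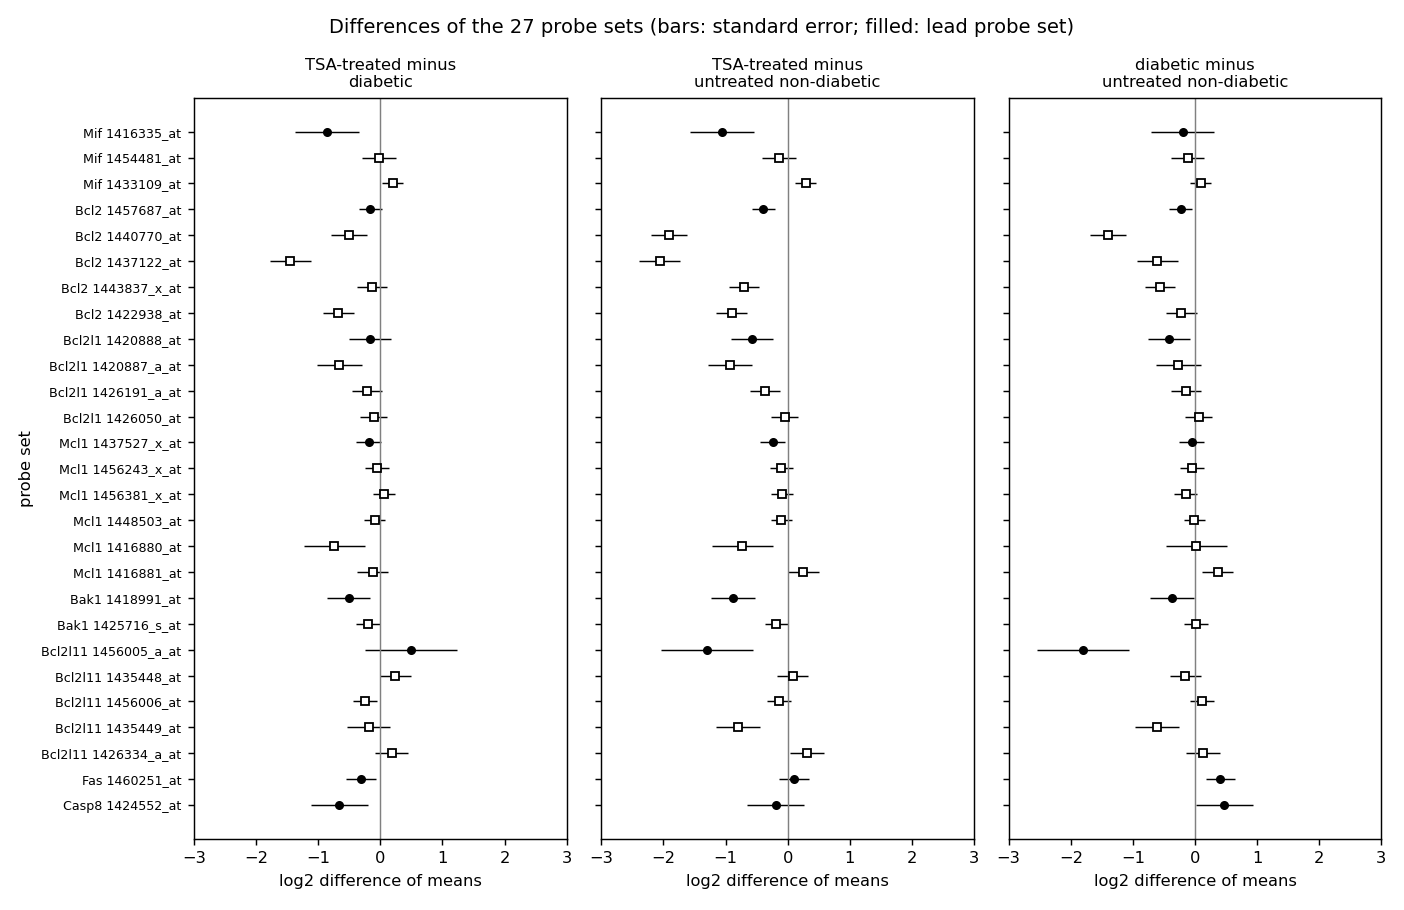
Log2 difference of group means (horizontal axes) with its standard error (bars) for each of the 27 probe sets (rows), for TSA-treated minus diabetic, TSA-treated minus untreated non-diabetic and diabetic minus untreated non-diabetic mice from left to right, the lead probe set of each gene filled. The lowest values were those of Bcl2 1437122_at (−2.06) and 1440770_at (−1.91) in the middle panel and Bcl2l11 1456005_a_at (−1.80) in the right one.

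Other genes of the apoptosis machinery, and genes listed with MIF, were read from 6 lists of 73 gene symbols chosen for this report. Faim3 and Fcmr in these lists name the same gene, and 62 symbols had a probe set of their own. None of the 62 was called in any comparison by limma. At an unadjusted p under 0.05 by limma, 0 were higher and 3 lower in TSA-treated than in diabetic mice, where 2.21% and 2.06% of all probe sets were. Against untreated non-diabetic mice 4 were higher and 3 lower in TSA-treated mice, where 6.39% and 8.34% of all were. In diabetic against untreated non-diabetic mice 1 was higher and 0 lower, where 2.84% and 3.43% of all were. The median differences of the 62 were −0.10, 0.01 and 0.06, close to the 0.02, 0.05 and 0.01 of all probe sets. Among the 2 other anti-apoptotic family genes measured, the 15 caspase, apoptosome and inhibitor genes and the 7 genes of the p53 axis, the only unadjusted p under 0.05 fell on Cycs and Apaf1.

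Bok, a BAK-like effector, read 6.49 and 6.20 in TSA-treated mice, 6.98 and 6.75 in diabetic mice and 6.98 and 6.99 in untreated non-diabetic mice. Fcmr, an IgM receptor of B cells first described as an inhibitor of FAS-driven death, read 8.63 and 8.22 in TSA-treated mice, 9.35 and 9.49 in diabetic mice and 9.72 and 9.45 in untreated non-diabetic mice. TSA-treated arrays of both genes lay below all others. The differences between TSA-treated and diabetic mice were −0.52 ± 0.18 for Bok and −1.0 ± 0.21 for Fcmr (unadjusted p = 0.031 and 0.00308, adjusted p = 0.902 for each by limma), and those between TSA-treated and untreated non-diabetic mice −0.64 ± 0.18 and −1.16 ± 0.21 (adjusted p = 0.218 and 0.126).

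Cycs, which encodes cytochrome c, the mitochondrial protein that assembles the apoptosome, read 11.43 and 11.68 in TSA-treated mice, 11.34 and 11.29 in diabetic mice and 10.77 and 10.79 in untreated non-diabetic mice. Its groups did not overlap, in the reverse order to Bcl2. It lay higher than in untreated non-diabetic mice by 0.77 ± 0.17 in TSA-treated and by 0.54 ± 0.17 in diabetic mice (unadjusted p = 0.00357 and 0.0178, adjusted p = 0.152 and 0.758 by limma). Apaf1, the scaffold of the apoptosome, read 7.28 and 7.24 in TSA-treated mice, 6.80 and 7.28 in diabetic mice and 6.70 and 6.58 in untreated non-diabetic mice. Its TSA-treated arrays lay above the untreated non-diabetic ones and level with the higher diabetic one, with a difference from untreated non-diabetic mice of 0.62 ± 0.21 (adjusted p = 0.261 by limma).

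The genes below come from the list drawn up around MIF, and no link of theirs to MIF was measured. Cxcr4, a chemokine receptor that MIF can bind, read 8.51 and 7.83 in TSA-treated mice, 8.82 and 8.91 in diabetic mice and 8.48 and 8.61 in untreated non-diabetic mice. Its TSA-treated arrays lay below the diabetic ones, with a difference of −0.70 ± 0.25 (unadjusted p = 0.0328, adjusted p = 0.902 by limma), and overlapped the untreated non-diabetic ones. Nqo1, an oxidoreductase of the antioxidant response, read 6.86 and 6.09 in TSA-treated mice, 5.37 and 6.38 in diabetic mice and 5.11 and 4.96 in untreated non-diabetic mice. Cbx1, a heterochromatin protein, read 8.29 and 8.40 in TSA-treated mice, 7.77 and 8.39 in diabetic mice and 7.51 and 7.59 in untreated non-diabetic mice. The TSA-treated arrays of Nqo1 and of Cbx1 lay above the untreated non-diabetic ones, by 1.44 ± 0.40 and 0.79 ± 0.24 in mean (adjusted p = 0.212 and 0.226 by limma).

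Summed markers of lymphocytes also lay lower on each of the TSA-treated arrays than on the others, though not every marker did. All 9 B cell markers and 10 of 11 T cell markers lay above the median probe set, as did 8 of 8 pancreatic acinar and 3 of 4 adipocyte markers. The summed B cell markers had a log2 level of 12.79 and 11.74 in TSA-treated mice, 13.21 and 13.31 in diabetic mice and 13.42 and 13.39 in untreated non-diabetic mice. Against untreated non-diabetic mice 8 of the 9 were lower in TSA-treated mice at an unadjusted p under 0.05, with a median difference of −1.24, and 0 were called by limma. The summed T cell markers stood at 10.92 and 10.54 in TSA-treated mice, 11.03 and 11.18 in diabetic mice and 11.39 and 11.43 in untreated non-diabetic mice, and 7 of the 11 were lower in TSA-treated mice at that p, with a median difference of −0.66 and 0 called. Against diabetic mice 5 of the 9 B cell and 3 of the 11 T cell markers were lower in TSA-treated mice at that p and 0 higher. Their median differences were −1.16 and −0.23. TSA-treated replicate 2 was the lowest array for both sums. Markers of dividing cells had sums of 14.27 and 14.01 in TSA-treated mice, 13.72 and 14.07 in diabetic mice and 13.11 and 13.15 in untreated non-diabetic mice. At an unadjusted p under 0.05, 5 of 9 were higher in TSA-treated than in untreated non-diabetic mice, with 0 called. In diabetic mice 5 of 9 were likewise higher than in untreated non-diabetic mice, with 0 called. Among other cells, 5 of 7 plasma cell and 4 of 6 megakaryocyte and platelet markers were lower, and 4 of 9 erythroid markers higher, in TSA-treated than in untreated non-diabetic mice at that p, with 0 called. In diabetic against untreated non-diabetic mice 3 of 9 erythroid markers were higher and 2 of 6 megakaryocyte and platelet markers lower. Of all probe sets 6.39% were higher and 8.34% lower in TSA-treated than in untreated non-diabetic mice at that p. In diabetic against untreated non-diabetic mice 2.84% and 3.43% were, and in TSA-treated against diabetic mice 2.21% and 2.06%. The summed erythroid markers stood at 14.51 and 14.02 in TSA-treated mice, 14.08 and 14.08 in diabetic mice and 13.65 and 13.67 in untreated non-diabetic mice. The summed plasma cell markers stood at 13.28 and 13.04 in TSA-treated mice, 13.48 and 13.55 in diabetic mice and 13.53 and 13.59 in untreated non-diabetic mice. The summed megakaryocyte and platelet markers stood at 12.66 and 12.45 in TSA-treated mice, 12.86 and 13.08 in diabetic mice and 13.09 and 13.01 in untreated non-diabetic mice. TSA-treated arrays lay below all others for the plasma cell and megakaryocyte sums. Neutrophil markers were lower in TSA-treated than in diabetic mice in 5 of 9 at that p, and higher in diabetic than in untreated non-diabetic mice in 3 of 9. The neutrophil sums were 14.73 and 14.61 in TSA-treated mice, 15.08 and 15.12 in diabetic mice and 14.38 and 14.50 in untreated non-diabetic mice. Natural killer cell and macrophage markers passed that p in at most 1 gene in either direction in each comparison. The part of these cells in the members' differences was not tested.

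The profiles most like each lead probe set were sought among 19234 probe sets above the median level that name 1 other gene, by the root mean square difference over the 6 arrays after each probe set's own mean was subtracted. For Mif they were Wdr1 (0.053), Clta (0.054) and Atp9b (0.054), each also low on TSA-treated replicate 2 alone. For Bcl2 they were Lpp, Klhl24 and Gprasp1 (0.042 to 0.050), for Bcl2l1 Wdr75, Tshz1 and Mlh3 (0.092 each), for Mcl1 Gm30054, Csnk1d and Crebbp (0.020 to 0.054) and for Bak1 Map2k2, Exoc3l4 and Npepl1 (0.081 to 0.090). For Bcl2l11 they were Agfg2 (0.151), Klf9 (0.206) and Ccar1 (0.232), which like it were lowest on diabetic replicate 2. For Fas they were Ptgr2, Mfsd1 and Erg (0.039 to 0.044), and for Casp8 Bzw1, Lamp2 and Jmjd6 (0.058 to 0.078). With 6 arrays of 3 pools these likenesses describe the arrays only.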

How the data were processed

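Total RNA of splenocytes was measured on 6 Affymetrix 3′ expression arrays, 2 labelings of 1 RNA pool in each of 3 groups. The authors used Robust Multi-array Average (RMA) with quantile normalization, and the deposited values are log2 levels. RMA levels of different probe sets are not comparable per length, so differences between groups are within a probe set, and the order of probe sets by level served only to choose leads, to set the median level and, with sums of marker levels, to describe the arrays. Of 45101 probe sets, 64 Affymetrix controls entered no test and gave the 3′ and 5′ gaps. Of the 45037 tested, 34945 name 1 gene in the platform annotation, 932 several and 9160 none.

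A linear model of the 6 arrays with a mean for each group was fitted in limma 3.58.1 (R 4.3.3), whose empirical Bayes step gave 2.94 prior beside 3 residual degrees of freedom. P-values were adjusted by the Benjamini-Hochberg method over the 45037 probe sets within a comparison, and calls were made below 0.05. No filter on level was applied. LPE was re-implemented from its published form. The tests were tested on simulated data. Alternatives were a replicate block, leaving out each array, 2 groups alone, an intensity trend, robust variances, the methods' t-test, LPE and analysis of variance, an adjusted p under 0.001, an unadjusted p, only probe sets above the median level, median centring, quantile normalization again and gene means. LPE at an adjusted p under 0.001, the unadjusted t-test and the crossed block were added after seeing the data. So were the counts for each TSA-treated array alone and those of lower means without TSA-treated replicate 2. The counts above the median level of lower means, of arrays without overlap and of unadjusted p under 0.05 were added then too.

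The members, the 17 gene lists and the tests were chosen with earlier results of these data known. Genes of the lists, markers among them, were each read only at the brightest probe set that names them alone. Every member probe set is described. From a pathway list, up to 2 genes a comparison with the smallest unadjusted p under 0.05 are named, Cd74 always, and 3 nearest profiles a member. Promoter sequences are from RefSeq (GRCm38.p6), as are the coordinates of genes, since probe positions were not analysed here.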

Additional observations from a re-analysis of the deposited data

How the results depend on the processing

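The replicate numbers did not pair the arrays: deviations of same-numbered arrays from their group means correlated at −0.10 between TSA-treated and diabetic mice, −0.04 between TSA-treated and untreated non-diabetic mice and −0.34 between diabetic and untreated non-diabetic mice. With the replicate number as a block 0 member probe sets were called in each comparison, and 0, 30 and 33 over all probe sets against 12, 31 and 40. With the numbers crossed, member calls were 0 in TSA-treated against diabetic and in diabetic against untreated non-diabetic mice (0 and 53 over all).

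Leaving out each array in turn, limma called 0 to 2 members in TSA-treated against diabetic mice, 0 to 2 when TSA-treated mice were set against untreated non-diabetic ones, 0 to 0 in diabetic against untreated non-diabetic mice and 0 to 2 across the groups. Member calls between TSA-treated and untreated non-diabetic mice were 1 with those groups alone, 2 with LPE and 0 with LPE at an adjusted p under 0.001, and between diabetic and untreated non-diabetic mice 1 with LPE at either threshold. At an unadjusted p under 0.05 they were 2, 6 and 1 in the 3 comparisons and 3 across the groups by limma, and 0, 3 and 1 by the methods' t-test.

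Of 384 alternative values of the 24 lead differences, 367 kept direction and side of the threshold, 4 passed it (Mif against each untreated group without TSA-treated replicate 1, Bcl2 as a gene mean, Bcl2l11 by LPE) and 13 reversed. With median centring and with gene means the Mcl1 difference between diabetic and untreated non-diabetic mice was 0.00 and 0.02. The other 11 reversed on leaving out an array, each without passing the test. Between TSA-treated and diabetic mice they lay from −0.64 to 1.64 for Bcl2l11, −0.59 to 0.26 for Bcl2l1, −0.36 to 0.04 for Bcl2 and −0.39 to 0.02 for Mcl1. Between TSA-treated and untreated non-diabetic mice they lay from −0.11 to 0.31 for Fas and −0.82 to 0.44 for Casp8, and between diabetic and untreated non-diabetic mice from −0.26 to 0.15 for Mcl1. The cause was not tested. Signal over background limits the dimmer probe sets: 8 of the 27 members lay below the median level.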
